A study of Zea mays with 8 samples.

Results

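The wide ear regions of one tag are stretches of maize chromatin of at least 1500 bp that were called as bound by RAMOSA1 (RA1) in ear primordia with 1 tagged form of the protein and not with the other. To find them, the peaks of all 4 deposited lists (1 for each combination of tassel or ear with HA or YFP) on chromosomes 1 to 10 were merged wherever they overlapped by at least 1 bp. Of the 25032 merged regions, 17504 held peaks of a single ear list and of no other list. Of these, 973 reached the width limit of 1500 bp, 97 with HA and 876 with YFP, and each of them consisted of 1 peak. The other 16531 (5490 with HA and 11041 with YFP) are called narrower regions and serve as the comparison. Members were thus chosen by measured values, the width of a peak and its lack of overlap with the other lists. Width, height, score and summit of a region come from the same peak call, so their values are a description and carry no test.

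RA1 is a zinc finger transcription factor of grasses. It is expressed at the base of spikelet pair meristems, which form the short branches of the inflorescence. It makes these meristems determinate, so that ra1 mutants form extra long branches in the tassel and branched ears. In chromatin immunoprecipitation followed by sequencing (ChIP-seq), DNA bound by a protein is recovered with an antibody, and a peak is a stretch in which more fragments are recovered than from input DNA. A single bound site of a sequence-specific factor usually gives a narrow peak with its highest point, the summit, near the middle. In maize, genes lie more densely toward the chromosome ends, while retroelements fill most of the middle of each chromosome.

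Plants carried either RA1-HA, an RA1 fusion to an HA-FLAG tag, or RA1-YFP, a fusion to a yellow fluorescent protein. Both constructs had the tag at the N-terminus and used the native expression domain of RA1. They were made in the HiII background, crossed to ra1-R and backcrossed, and could complement the mutant. All groups share the genotype label ra1/ra1 B73, from families in which transgene and mutation segregated. The ear groups were pooled ear primordia of 1 to 5 mm collected 6 weeks after planting, and the tassel groups were pooled tassel primordia of the same size collected after about 4 weeks. RA1-HA was precipitated with an HA antibody and RA1-YFP with a GFP antibody, and 4 input DNA libraries accompany the 4 ChIP libraries. There was 1 ChIP library for each tissue and tag, so nothing here measures variation between plants, and a difference between the HA and YFP members cannot be told apart from a difference in transgene, antibody or depth. The ear lists held 6641 HA and 12840 YFP peaks on the 10 chromosomes, with median heights of 6 and 8 fragments, and the tassel lists 2875 and 4797 peaks, both with a median of 4. The total number of reads of each library is not known here. Coordinates are those of the AGPv2 assembly of maize B73, and the genes at these places were not analysed here.

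Wide regions made up 1.74% of the 5587 ear HA regions of one tag (exact 95% binomial interval 1.41 to 2.11) and 7.35% of the 11917 ear YFP regions (6.89 to 7.83). They covered 0.177 Mb of the 3.34 Mb of one-tag HA regions and 1.73 Mb of the 9.36 Mb of one-tag YFP regions, which is 5.29% and 18.4% of the length. Regions of this width and of one list were nearly absent from the tassel lists, whose depth is unknown. Tassel HA had 0 regions of this width among its 2176 regions of one list, which allows a share of up to 0.138%, and tassel YFP had 1 among 3712. Off the 10 chromosomes, 12 of the 32 tassel YFP peaks were this wide, which the rule leaves out. No wide ear peak was found there, where the ear HA and YFP lists had 7 and 16 peaks, which allows shares of up to 42.9% and 18.75%. Being alone was less common among wide ear peaks than among narrower ones. Of all 164 ear HA peaks of at least 1500 bp, 59.1% were alone (51.2 to 66.7) against 84.8% of the 6477 narrower HA peaks (83.9 to 85.6). In ear YFP, 83.4% of 1050 wide peaks were alone (81.0 to 85.6) against 93.6% of 11790 narrower ones (93.2 to 94.1). A wider peak meets a peak of another list more readily, and the part this geometry plays was not tested.

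Most members lay not far above the width limit. The HA members ranged from 1502 to 3997 bp with a median of 1719 bp, and 81 of the 97 were under 2000 bp. The YFP members ranged from 1500 to 4287 bp with a median of 1821 bp. Of these, 568 were under 2000 bp, 277 from 2000 to under 3000 bp, and 31 wider. Nothing marks the limit itself in the data. The narrowest HA member, on chromosome 9 from 152187046 to 152188547, was 1502 bp wide with a height of 7 fragments and a score of 56.5. The widest HA region left out, on chromosome 7 from 127887852 to 127889342, was 1491 bp wide with a height of 9 and a score of 64.9. For YFP the regions on either side of the limit differed by 1 bp in width, with 1500 bp inside (chromosome 1, 234770502 to 234772001, height 10, score 54.3) and the other just outside (chromosome 1, 16062108 to 16063606, height 15, score 50.5).

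Members were higher than narrower regions of the same list, but still low. Summit height is the number of overlapping fragments at the summit. It had a lowest, median and highest value of 5, 8 and 15 fragments in HA members, against 3, 6 and 22 in narrower HA regions. In YFP members these were 6, 11 and 47, against 4, 8 and 37 in narrower YFP regions. The distributions overlapped widely. A height above the median of the narrower regions was reached by 81.4% of HA members and 88.0% of YFP members, against 43.4% and 43.2% of narrower regions. Width beyond the limit went with little more height. The median was 8 fragments in HA members under 2000 bp and in those from 2000 to under 3000 bp, and it was 11 in all 3 width classes of YFP members. Narrower regions of 1000 to under 1500 bp had medians of 8 in HA, equal to the members, and 10 in YFP.

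**Figure D1:**
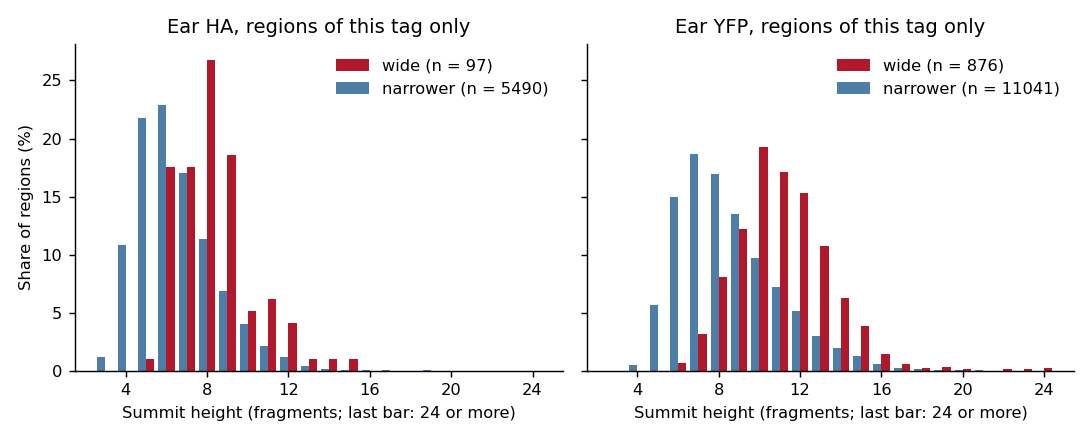
Share of regions (%) at each summit height (fragments) for wide (red) and narrower (blue) ear regions of one tag, HA on the left and YFP on the right. The wide regions are centred on 8 fragments in HA and 11 in YFP, the narrower ones on 6 and 8, and the distributions overlap.

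The authors' score, read here as minus 10 times log10 of the p-value of the peak caller, was also higher in members. Its median was 64.7 in HA members (quartiles 57.4 and 76.7) against 57.1 in narrower HA regions, and 66.7 in YFP members (57.0 and 81.9) against 59.2. A score of 100 or more was found in 6.19% of HA members against 1.00% of narrower HA regions, and in 11.3% of YFP members against 2.22%. Among the 100 one-tag regions of highest score, 9 were wide in HA and 39 in YFP. Among the 100 highest summits the numbers were 5 and 17. Of all one-tag regions, 1.74% were wide in HA and 7.35% in YFP. Score and height hardly ran together within the members. Across regions of 1 library, which are not independent replicates, Spearman's rho between them was -0.0075 over 97 HA members and 0.037 over 876 YFP members, against 0.292 over all 5587 one-tag HA regions and 0.235 over all 11917 one-tag YFP regions.

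Single members show how the measures part. The widest HA member, on chromosome 8 from 171604942 to 171608938, was 3997 bp wide and had the highest score of the HA members, 147, with a height of only 8 fragments. The next widest, on chromosome 1 from 26689957 to 26692874, was 2918 bp wide with a score of 121 and again a height of 8. The other HA members among the 5 widest had heights of 8, 10 and 8 fragments, at 108100179 to 108102929 of chromosome 9, 239703570 to 239706228 of chromosome 4, and 4444545 to 4447031 of chromosome 1. None of these 5 was among the 5 highest HA summits. Those stood at 15 fragments on chromosome 9, in a region ending at 122591614 and 1504 bp wide, at 14 at 15357399 to 15358950 of the same chromosome, at 13 at 170496286 to 170498556 of chromosome 7, and at 12 at 93083824 to 93085626 of chromosome 7 and 107767494 to 107769622 of chromosome 2. Another 2 HA members, left out by their lower scores, also had 12 fragments. The next HA scores were 121 at 124667092 to 124668872 of chromosome 1, 108 at 73860559 to 73862442 of chromosome 5 and 101 at 215502620 to 215504206 of chromosome 4. Their heights were 8, 6 and 8 fragments, all near the HA median.

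Width and height also came apart in the widest YFP members, although across all YFP members rho was 0.172 between width and height and 0.171 between width and score, against 0.041 and -0.014 in HA members. The widest was on chromosome 7 from 117512897 to 117517183, 4287 bp wide with a height of 10 and a score of 108. It was followed by regions of 4203 bp (chromosome 4, 179801952 to 179806154, height 13), 4026 bp (chromosome 7, 142903491 to 142907516, height 13), 3812 bp (chromosome 6, 121758250 to 121762061, height 10) and 3666 bp (chromosome 9, 43957741 to 43961406, height 10). Their heights lay within 2 fragments of the YFP median of 11. The highest YFP summit, 47 fragments, was in a region of 1748 bp on chromosome 7 from 110330921 to 110332668 with a score of 104. The second, 30 fragments on chromosome 1 from 148229805 to 148231504, had a score of only 60.01, and the next, 23 fragments on chromosome 7 from 149488455 to 149490495, one of 64.1. Heights of 22 and 20 fragments followed at 6251378 to 6252961 of chromosome 9 and at 153241613 to 153243210 of chromosome 6. Only these 5 of the 876 YFP members had a height of at least 20. The highest scores were 171 (chromosome 1, 297350674 to 297353149, height 10), 170 (chromosome 6, 134648623 to 134650436, height 15) and 169 (chromosome 5, 214618899 to 214620744, height 11).

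The summit of a wide region lay farther from its middle, relative to width, than that of a narrower region. With 0 for the centre of a region and 1 for either edge, the median place of the summit was 0.42 in HA members (exact interval of the median 0.29 to 0.49) and 0.48 in YFP members (0.46 to 0.51), against 0.26 and 0.28 in narrower regions. The outer 25% of the width on either side held 36.1% of the summits of HA members and 47.9% of those of YFP members, against 11.7% and 13.9% in narrower regions. The middle 20% held 29.9% and 22.3%, against 39.6% and 36.1%. Regions of 1000 to under 1500 bp lay close to the members, with medians of 0.41 in HA and 0.40 in YFP. The smallest distance from a summit to an edge was 131 bp in HA members and 123 bp in YFP members and 86 and 83 bp in narrower regions; the part this plays in the places of summits was not tested. In base pairs the members' summits were farther from the nearer edge, at a median of 529 bp in HA and 464 bp in YFP against 157 and 205 bp. Counted in steps of 10% of the width from the start, the summits of YFP members were most frequent between 10 and 20%, with 16.4%, and between 20 and 30%, with 14.95%. The next steps up to 50% held 11.4% and 12.4%, those from 50 to 70% held 9.82% and 7.19%, and those from 70 to 90% held 11.1% and 10.5%. The outermost steps held the least, 3.31% and 2.85%.

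**Figure D2:**
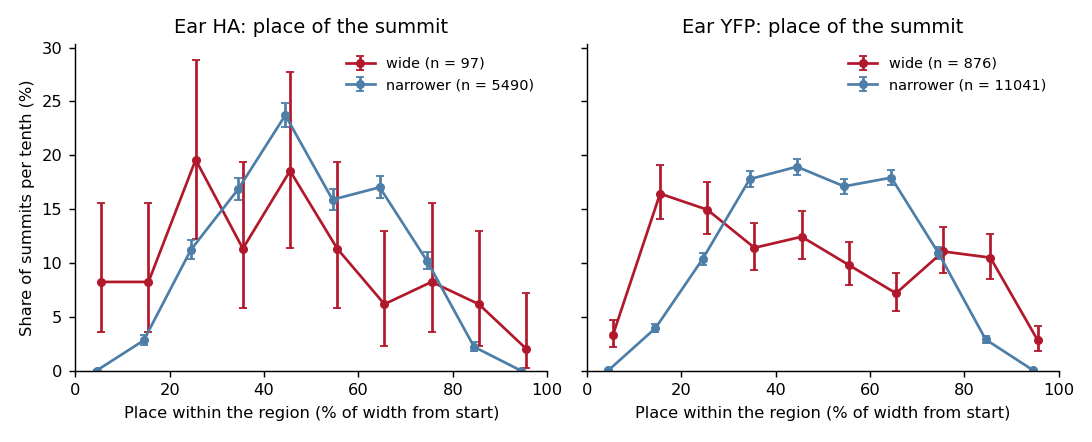
Share of summits (%) in each 10% of the width of the region, from its start at the lower coordinate, for wide (red) and narrower (blue) ear regions of one tag. Bars are exact 95% binomial intervals. Narrower regions are highest in the middle, and the wide YFP regions are highest between 10 and 20% of the width, with 16.4% of summits.

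The side of the summit was not evenly divided either. It lay in the lower-coordinate part, before the centre, in 66.0% of HA members and 58.6% of YFP members, against 54.6% and 51.1% of narrower regions. The differences were 11.3 percentage points in HA (Newcombe 95% interval 1.37 to 20.1) and 7.50 in YFP (4.08 to 10.9). Coordinates run along 1 strand of the assembly and carry no direction of transcription. The 5 highest YFP summits all lay before the centre of their region, at 11.4% to 42.0% of the width from its start. The widest HA member had its summit at 59.4% of the width and the widest YFP member at 75.3%.

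Place along the chromosome was not used to choose the members, and it set them apart from narrower regions in both ear libraries. Of the HA members, 55 of 97 (56.7%, 46.3 to 66.7) had their summit in the outer 40% of the chromosome span, which is the distance up to the last peak of any list, against 2200 of 5490 narrower HA regions (40.1%, 38.8 to 41.4). Of the YFP members, 514 of 876 did (58.7%, 55.3 to 62.0), against 4355 of 11041 narrower YFP regions (39.4%, 38.5 to 40.4). The difference was 16.6 percentage points in HA (Newcombe interval 6.61 to 26.1) and 19.2 in YFP (15.8 to 22.6). Narrower regions were thus spread nearly evenly and members were not. With only peaks of score 60 or more, the HA difference was 8.32 points over 67 members and its interval spans 0 (-3.46 to 20.2). Regions of a library are not replicates, and these intervals cover counting error only. The middle 20% of the span held 9.28% of HA members and 9.70% of YFP members, against 21.2% and 20.8% of narrower regions.

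**Figure D3:**
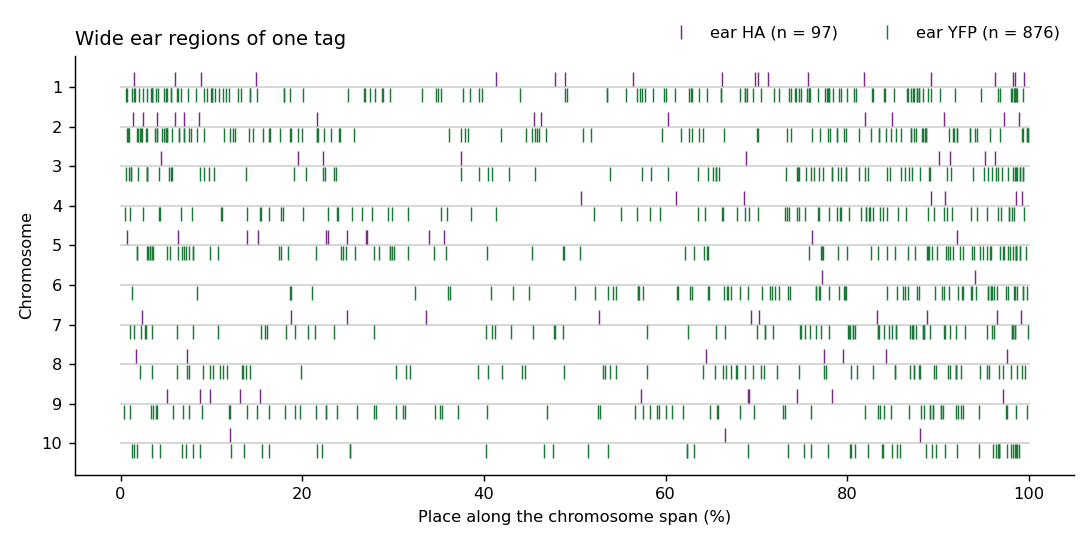
Place of each of the 973 wide ear regions of one tag along chromosomes 1 to 10 (vertical axis), in percent of the chromosome span (horizontal axis), with HA above and YFP below each line. The YFP marks are dense toward both ends and sparse in the middle of most chromosomes.

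Steps of 10% of the span show the profile in more detail. The first and last steps held 18.6% and 20.6% of HA members against 10.3% and 11.4% of narrower HA regions, and 15.1% and 19.2% of YFP members against 9.97% and 10.7% of narrower YFP regions. The steps from 30 to 60% held 4.12%, 5.15% and 4.12% of HA members and 4.11%, 4.57% and 5.14% of YFP members. Narrower regions stayed between 8.85% and 11.4% in every step in HA and between 9.08% and 10.7% in YFP. The share of one-tag YFP regions that were wide therefore changed along the chromosome. It was 11.6% in the outer 20% of the span (10.4 to 12.9) and 3.56% in the middle 20% (2.86 to 4.39), and it was lower at each of the 3 steps between, at 9.38%, 7.17% and 4.73%. In HA these ends were 3.09% (2.20 to 4.22) and 0.767% (0.351 to 1.45).

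**Figure D4:**
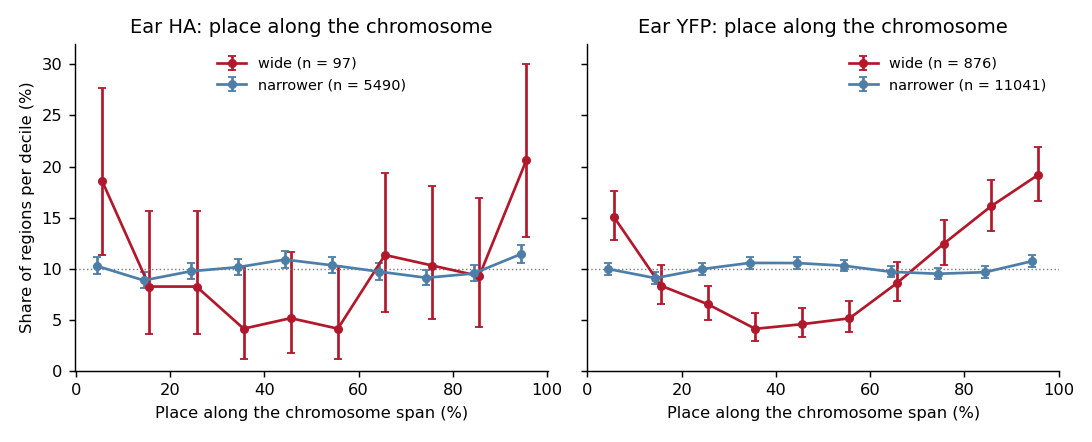
Share of regions (%) in each 10% of the chromosome span for wide (red) and narrower (blue) ear regions of one tag, with exact 95% binomial intervals. The dotted line at 10% is an even spread. The wide YFP regions make a trough near 4% to 5% in the middle and reach 19.2% in the last step.

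The outer share moved with width below the limit as well, so 1500 bp is not where the profile begins. In YFP it was 35.5% for regions under 500 bp, 38.9% from 500 to 999 bp, 48.7% from 1000 to under 1500 bp, 57.9% from 1500 to 1999 bp and 61.0% from 2000 to under 3000 bp, and then 51.6% for the 31 wider regions (33.1 to 69.8). The HA values in the same classes were 36.4%, 41.7%, 55.2%, 55.6% and, for 9 of 15 regions, 60%. Against narrower regions of 1000 to under 1500 bp alone, the difference was 1.48 percentage points in HA (-9.55 to 12.1) and 10.02 in YFP (6.01 to 13.96). Height moved with place too. Narrower HA regions of 6 fragments or fewer had an outer share of 33.7% and those of 9 or more 57.8%. With narrower regions weighted to the heights of the members, the difference was 8.02 points in HA and 10.2 in YFP, smaller than without weights. No interval was computed for these weighted differences. The weighted narrower share was 48.7% in HA, inside the HA members' interval (46.3 to 66.7). In YFP it was 48.5%, below the YFP members' interval (55.3 to 62.0). At 9 fragments or more, HA members were not above narrower regions, at 52.8% (35.5 to 69.6, 36 regions) against 57.8% (54.4 to 61.2). YFP members were above narrower regions in each of 5 height classes, with intervals apart at 9 fragments or fewer (50.5% against 34.3%) and at 11 (65.3% against 48.9%). The intervals overlapped at 10 fragments, at 12 to 13, and at 14 or more (64.1% against 56.8%).

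The outer share was also counted for wide ear peaks that were not alone. In ear YFP, 51.2% of the 129 wide peaks in a region with an HA ear peak lay in the outer 40% (42.2 to 60.1), an interval that overlaps that of the 876 members. In ear HA this was 51.9% of 54 (37.8 to 65.7), which again overlaps. Wide peaks in a region with a tassel peak had outer shares of 66.7% in YFP (54.3 to 77.6, 69 peaks) and 60.9% in HA (38.5 to 80.3, 23 peaks). None of these differences from the members was tested. Narrower ear peaks that were not alone had higher outer shares than the narrower regions of one tag (40.1% in HA, 39.4% in YFP). With a peak of the other ear tag these shares were 47.0% in HA and 46.5% in YFP, and with a tassel peak 48.3% and 47.6%. Of all tassel peaks, 47.1% (HA) and 48.2% (YFP) lay in the outer 40%, below the YFP members. Counts by chromosome were small in HA. Chromosome 1 held 19 of the 97 HA members and chromosome 6 only 2, which is 2.06% (0.251 to 7.25) against 7.43% of narrower HA regions (6.75 to 8.16). In YFP the largest gap was on chromosome 4, with 81 members, 9.25% against 12.4%. With 10 chromosomes compared in each list, single gaps of this size carry little weight.

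At 10 kb, no difference beyond counting error was found in how often another peak of the same list lay near. Another peak of the same list had its summit under 10 kb away for 8 of 97 HA members (8.25%, 3.63 to 15.6) and 10.04% of narrower HA regions, and for 144 of 876 YFP members (16.4%, 14.04 to 19.1) and 15.7% of narrower YFP regions. The differences of -1.79 points in HA (-5.88 to 5.44) and 0.751 points in YFP (-1.66 to 3.44) have intervals that span 0. Under 1000 bp, which is less than the width of a member, another YFP summit lay near 0.114% of YFP members and 1.46% of narrower YFP regions (difference -1.34 points, -1.60 to -0.775). The nearest peak of the same list was a median of 108244 bp away in HA members and 53265 bp in YFP members, against 99136 and 49782 bp. Distances between members of the same tag were counted as well, and no count expected from even placement was computed for them. No 2 HA members had summits under 100 kb apart, and the closest pair was 250306 bp apart. A count of 0 among 97 allows up to 3.09%. In YFP, 116 members had another YFP member under 100 kb away and 26 under 10 kb. They formed 51 pairs, 2 groups of 3 and 2 groups of 4, and the remaining 760 stood alone.

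Both groups of 4 lay in the outer 40% of the span. The first, on chromosome 5, starts at 214520509 and ends at 214635170, at 98.5% to 98.6% of the span. Its members were 2926, 2804, 1846 and 1516 bp wide, with heights of 11, 14, 11 and 7 fragments and scores of 58.6, 125, 169 and 54.4. They thus range from near the score limit to among the highest YFP scores. Each of these 4 had a tassel summit under 10 kb away, at 5295, 9239, 5199 and 2265 bp. The distances of 5295 and 9239 bp are to the same tassel YFP peak. The second, on chromosome 7, starts at 156111672 and ends at 156224045, at 88.4% of the span. Its members were 1828, 1723, 1697 and 1665 bp wide, with heights of 11, 11, 16 and 9 fragments. None of those 4 had a tassel summit under 50 kb, but 2 had an ear HA summit near, at 5352 and 2988 bp, which is that of the same HA peak.

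The members were chosen to hold no tassel peak, so what remains to be measured is how near the closest tassel peak lay. A tassel summit of either tag was under 10 kb away for 9 of 97 HA members (9.28%, 4.33 to 16.9) and 9.03% of narrower HA regions, a difference of 0.244 points (-4.15 to 7.70). For YFP it was so for 119 of 876 members (13.6%, 11.4 to 16.0) and 8.31% of narrower regions (7.80 to 8.84), a difference of 5.28 points (3.10 to 7.76). The YFP difference was there for tassel YFP peaks, 10.6% against 5.67%, and for tassel HA peaks, 5.25% against 3.57%. In HA members 8 of the 9 nearest tassel peaks were of the YFP list, the longer of the tassel lists. The same was so for 314 of the 496 nearest to narrower HA regions. At 100 kb, members of both tags more often had a tassel peak near, with 63.9% against 48.2% in HA (difference 15.7 points, 5.68 to 24.6) and 55.1% against 48.8% in YFP (6.38 points, 2.94 to 9.78). The HA intervals spanned 0 at 5 kb (-2.86 points, -4.47 to 2.32) and at 50 kb (5.09 points, -3.76 to 15.1). The YFP differences there were 3.39 points (1.74 to 5.40) and 6.28 points (3.07 to 9.62). Under 1000 bp the differences were -0.710 points in HA and -0.529 in YFP, with intervals that span 0. The 100 kb shares were not compared by height, width class or place. Median distances were 71820 bp in HA members against 105780 bp, and 85930 bp in YFP members against 104111 bp.

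The outer 40% of the span held 47.1% (HA) and 48.2% (YFP) of tassel peaks, less than the 58.7% of YFP members. Within the outer 40%, a tassel summit was under 10 kb away for 14.01% of YFP members and 9.67% of narrower YFP regions, a difference of 4.34 points (1.46 to 7.72). Within the inner 60% these shares were 12.98% and 7.42%, a difference of 5.56 points (2.42 to 9.47). This split was chosen after seeing the data, and place still varies within each part. The part that place plays in the YFP difference was not tested. The YFP difference moved with height and width. Against narrower YFP regions weighted to the members' heights it was 2.60 points, with no interval computed. Against regions of 1000 to under 1500 bp alone, of which 12.4% had a tassel summit under 10 kb, it was 1.21 points (-1.43 to 4.03), within counting error. The tassel peaks near YFP members had a lowest, median and highest height of 2, 4 and 42 fragments. The median of those near narrower YFP regions was 4 as well, as in the whole tassel lists. For 21 of the 119 YFP members the nearest tassel peak had a score of at least 100 (17.6%, 11.3 to 25.7), against 23.9% for narrower regions (21.2 to 26.8). A tassel peak nearest to several regions counts for each of them, so these are not all distinct peaks. A tassel region found with both tassel tags was under 10 kb away for 11 YFP members (1.26%, 0.628 to 2.24) and for 0 of 97 HA members, which allows up to 3.09%, against 0.770% and 0.619% of narrower regions. Most of the neighbours were tassel regions of 1 list only, which were near 103 YFP members (11.8%, 9.70 to 14.1) and 6.99% of narrower YFP regions (6.52 to 7.48).

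**Figure D5:**
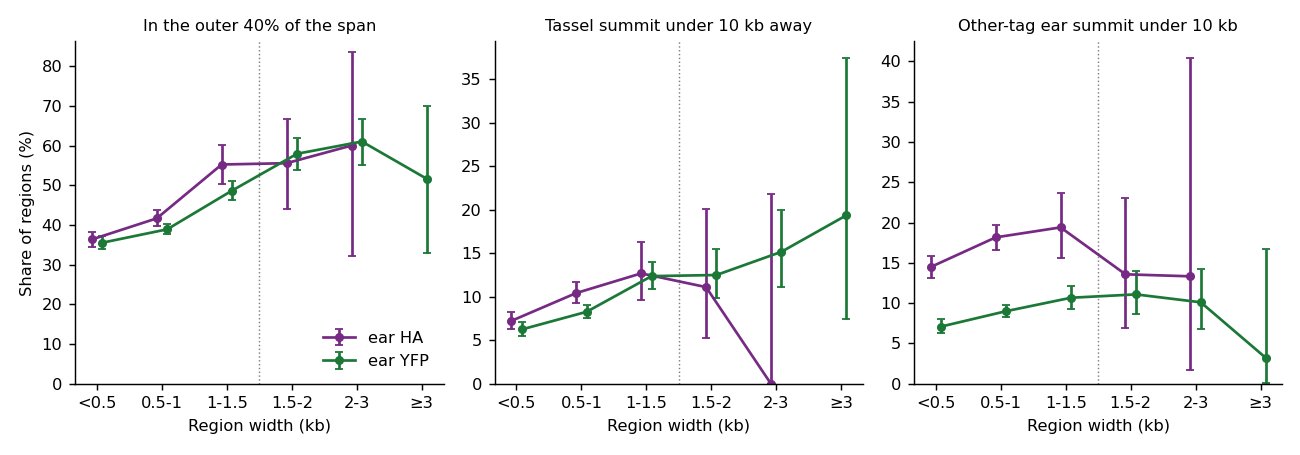
Share of one-tag ear regions (%) by width class (kb) that lay in the outer 40% of the span (left), had a tassel summit under 10 kb away (middle) or an ear summit of the other tag under 10 kb away (right), with exact 95% binomial intervals; the dotted line is the limit of 1500 bp, and the single HA region over 3 kb is not drawn. The outer share is higher in wider classes up to 3 kb in both tags and 51.6% in the 31 YFP regions beyond, and the tassel share reaches 12.4% in YFP already at 1000 to under 1500 bp.

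The members nearest to a tassel summit were all YFP members. On chromosome 9 from 91249489 to 91251339, a member of 1851 bp and 10 fragments began 18 bp past the end of a tassel YFP peak at 91249209 to 91249470, which had 4 fragments, and the summits were 685 bp apart. On chromosome 1 from 87160591 to 87162144 the distance was 1063 bp, to a tassel HA peak of 4 fragments, and on chromosome 2 from 21792096 to 21794438 it was 1209 bp, to a tassel YFP peak of 4 fragments. The nearest HA members were at 4450 bp (chromosome 3, 86925098 to 86927015), 4587 bp (chromosome 1, 299694764 to 299696438) and 5096 bp (chromosome 8, 3043684 to 3045394). Their tassel partners were of the YFP list, with 3, 8 and 3 fragments. None of these 6 partners was higher than 8 fragments.

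For the other ear tag, no difference beyond counting error was found at 10 kb from summit to summit. An ear YFP summit lay under 10 kb from 13 of 97 HA members (13.4%, 7.33 to 21.8) and from 16.5% of narrower HA regions, a difference of -3.06 points (-8.56 to 5.18). An ear HA summit lay under 10 kb from 92 of 876 YFP members (10.5%, 8.55 to 12.7) and from 8.68% of narrower YFP regions, a difference of 1.83 points (-0.112 to 4.09). At 50 kb the YFP shares were 35.2% and 30.6%, a difference of 4.55 points (1.34 to 7.88), and the HA shares 50.5% and 49.9%, a difference of 0.607 points (-9.26 to 10.4). The YFP difference at 10 kb was 2.17 points (0.17 to 4.48) when measured from edge to edge and 2.34 points (1.09 to 3.67) with a width limit of 1000 bp, where the same-list difference was 1.94 points (0.37 to 3.57). A YFP member lay under 10 kb from 3 of the 97 HA members (3.09%), and no share expected from even placement was computed. These pairs were named after their values were seen. On chromosome 3 the HA member from 51709520 to 51711952 and the YFP member from 51712708 to 51714336 were separated by 755 bp, with 8 fragments each. On chromosome 1 the HA member from 147348130 to 147349840 followed the YFP member from 147345494 to 147347528 after 601 bp, again with 8 fragments each. On chromosome 8 the HA member from 136046907 to 136048458, with 6 fragments, and the YFP member from 136040800 to 136042300, with 11, were 4606 bp apart. At 1 Mb, 62 of the 97 HA members (63.9%) had a YFP member near, again without an expected share.

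Single peaks of the other ear tag came closer. The HA member on chromosome 6 from 159117763 to 159119439 had an ear YFP summit of 9 fragments 1122 bp away, with 233 bp between the peaks. The HA members at 77435480 to 77437668 of chromosome 5 and 211537866 to 211539387 of chromosome 1 had one of 17 fragments at 2450 bp and one of 12 fragments at 2566 bp. These 3 members had 7, 7 and 8 fragments themselves, and heights are not scaled to depth between the lists. Among YFP members, that on chromosome 3 from 177233060 to 177234582 lay 854 bp from an ear HA summit of 5 fragments, that on chromosome 3 from 204123625 to 204125476 lay 868 bp from one of 6, and that on chromosome 6 from 152930368 to 152931939 lay 943 bp from one of 9. With 134, 186 and 576 bp between the peaks, these pairs count as regions of one tag only because their peaks did not touch.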

How the data were processed

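Per the submitters' processing notes, CASAVA and MACS 1.4.0rc2 were used, with a p-value limit of 1e-05 against input DNA per the series text. Not given in the sources used here are aligner settings, read filters and the pairing of ChIP with input libraries. Each peak's score, as deposited by the authors, is read as minus 10 times log10 of the p-value, because none lies below 50. The deposited summit signal counts whole fragments and is not scaled to depth. The 4 input libraries were used only through the authors' peak calling.

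Starts were raised by 1 for printing. Distances run from summit to summit, and a peak counts as near under 10 kb. Shares carry exact 95% Clopper-Pearson intervals, medians exact order-statistic intervals, and differences of shares Newcombe intervals. Limits for a count of 0 use 3 counts. All cover counting error only; no p-value was computed, since there was 1 library per tissue and tag. Weights matched narrower regions to the members in 1-fragment height classes, with 20 or more pooled. The regions named for each tag are the 5 widest, the 5 with the highest summit, the next 3 by score, the 3 nearest to a tassel summit, the 3 nearest to a summit of the other ear tag and the largest groups of members under 100 kb apart. Members, lists and rules were chosen with earlier results of these data known. Python 3.11.15, numpy 2.4.6, pandas 2.3.3, scipy 1.17.1, statsmodels 0.14.6 and matplotlib 3.10.9 were used, and the merging and distance steps were checked on simulated lists. The alternatives are a width limit of 1000 or 2000 bp, scores of at least 60 or 100, other ways of joining peaks, other comparison regions, edge distances, 50 kb and the outer 20% of the span.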

Additional observations from a re-analysis of the deposited data

Results flagged for a closer look

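The contrast of wide with narrower regions had opposite signs in the 2 ear libraries for 2 measures. The share with another peak of the same list under 10 kb away differed, members minus narrower regions, by -1.79 percentage points in HA, 8.25% against 10.04%, and by 0.751 points in YFP, 16.4% against 15.7%. The share with a peak of the other ear tag under 10 kb away differed by -3.06 points in HA, 13.4% against 16.5%, and by 1.83 points in YFP, 10.5% against 8.68%. Each of the 4 intervals spans 0, the difference between the libraries was not tested, and there was 1 library per tag.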

How the results depend on the processing

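Values are members minus narrower regions. The outer share of members stayed above that of narrower regions in all 10 settings tried in each tag, from 1.48 to 22.2 points in HA and from 9.03 to 19.7 in YFP. These settings include the outer 20% of the span in place of the outer 40%. The HA interval spans 0 at scores of at least 60 (8.32 points), at scores of at least 100 (15.2), at a width of 2000 bp (22.2) and against regions of 1000 to under 1500 bp, and the YFP interval does so at scores of at least 100. The tassel share of YFP members stayed above in all 13, from 1.21 to 8.23 points. That of HA members was above in 7 and below in 6. A width limit of 1000 bp gave 499 HA and 2703 YFP members, with differences in YFP of 2.0 fragments in median height, 0.16 in summit place and 14.3 points in the outer share. A limit of 2000 bp gave 16 HA and 308 YFP members, and HA differences of -10.03 points for near peaks of the same list and -9.06 for tassel peaks, since 0 of 16 members had either. With scores of at least 60 the height difference was 1.0 fragment in HA and 2.0 in YFP. With scores of at least 100 there were 10 HA and 117 YFP members, height differences of 0.0 and 2.0 fragments, summit place differences of -0.094 in HA (turned in sign, over 10 members) and 0.14 in YFP, and an outer difference of 9.03 points in YFP. Merging the ear lists alone gave 8.23 points for tassel peaks in YFP, since regions overlapping a tassel peak then stay in. Against regions of 1000 to under 1500 bp the height differences were 0.0 and 1.0 fragment, the outer differences 1.48 and 10.02 points, and in YFP the place difference 0.080, the tassel difference 1.21 and the other-tag difference -0.171 points. Weighting by height gave 10.2 points (outer) and 2.60 points (tassel) in YFP, and 8.02 points (outer) in HA, all without an interval. A limit of 50 kb gave -2.99 points for the same list and 4.55 for the other tag in YFP, and the outer 20% of the span 13.5 points. In base pairs from the nearer edge, another unit, summit place differed by 372 bp in HA and 259 bp in YFP. In splits chosen after seeing the data, the other-tag difference in HA was -9.77 points in the outer 40% of the span and 5.35 in the inner 60%, and the same-list difference in YFP was -3.06 points in the inner 60%. Apart from the cases explained above, the cause was not tested. Of 148 recomputed values, 112 lay within the interval of the reported value or, for counts, within 1.5 times of it. These include the HA outer differences at scores of at least 60 or 100 and at 2000 bp, whose own intervals span 0. No paired analysis was possible because each tissue and tag has 1 library. Heights are small whole numbers, and without library depths they cannot be compared between tags.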
